A study of Mus musculus with 12 samples.

Results

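Genes encoding proteins of the pre-mRNA splicing machinery were followed in whole aortae of fasted and control mice. Members are genes whose GENCODE M21 symbol belongs to the SR proteins (Srsf genes numbered in their symbol, Tra2a and Tra2b), the CLK kinases, the hnRNPs, U2AF, the SF3A and SF3B subunits, the Snrp genes or the numbered Prpf genes. Of 12287 genes formed from the deposited table, 73 are members, with 167 of its 22699 transcripts. Their symbols are 73 of the 79 that match in the annotation; Srsf12 and 5 pseudogenes had no listed transcript and are not analysed here. The design sets 6 aorta libraries from mice fasted for 24 h beside 6 from control mice, all C57BL/6 and aged 7 weeks, and asks which genes differ between them. No allele, transgene or drug is named for either group. Per the labels' protocols, fat was removed from the vessels and poly(A) RNA was made into strand-specific libraries.

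Splicing removes introns from pre-mRNA in a large complex, the spliceosome, which assembles from small nuclear ribonucleoprotein particles (snRNPs), each a short RNA bound by a ring of Sm proteins and by particle-specific proteins. U1 marks the 5′ splice site, U2AF and the SF3A and SF3B complexes of the U2 snRNP mark the 3′ splice site and branch point, and the tri-snRNP with its PRPF proteins completes the complex. SR proteins mostly favour the use of nearby exons, many hnRNPs oppose it, and CLK kinases phosphorylate SR proteins. Many genes of SR proteins and hnRNPs are themselves alternatively spliced, so their isoforms are given beside their levels.

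Levels are in FPKM, that is fragments per kilobase of a transcript divided by the total of the library, and a gene's level is the sum over its listed transcripts. Each log2 difference is the fasted group minus the control group in log2(FPKM + 1), with its SE from limma; the added 1 understates the change of low genes. A gene, transcript or share is called when its two-sided p, adjusted by Benjamini-Hochberg over all features tested, is under 0.05. The number of reads per library is unknown; listed transcripts summed to 299588 to 327492 FPKM. Whether each replicate is a separate animal is not stated in the labels, and the p-values therefore measure only the spread among these 12 samples, which may be technical. Fasted replicate 3 stood apart from the other libraries on the second principal component, which held 12.8% of the variance. Leaving it out gave 30 called members, 9 higher and 21 lower, the same 30 genes as with it. Over all genes tested, 34.7% were called without that library and 31.7% with it. Smooth muscle markers, 7 of 7 listed, had 1 higher and 1 lower. They summed to 8416 to 9637 FPKM in fasted and 8554 to 10696 FPKM in control aortae. Fibroblast markers, 7 of 7 listed, had 2 higher and 1 lower, and macrophage markers, 6 of 6 listed, 0 higher and 1 lower. Erythroid markers, 3 of 3 listed, were not called and summed to 205.1 to 1368 FPKM in fasted and 262.9 to 1601 FPKM in control aortae. None of 5 lymphocyte markers was listed. Adipocyte markers differed: 11 of 14 were listed (Lep, Elovl3 and Otop1 were not), 5 were higher and 0 lower, and their sum was 195.8 to 494.3 FPKM in fasted and 85.6 to 174.2 FPKM in control aortae, with no overlap. Endothelial markers, 7 of 7 listed, had 2 higher and 0 lower and summed to 194.3 to 267.3 FPKM in fasted and 137.6 to 211.7 FPKM in control aortae. In whole tissue, fewer cells of a type and less RNA per cell cannot be told apart.

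Splicing factor RNAs changed modestly and in both directions, with more of them lower than higher after the fast. Of the 73 genes, all of which passed the filter on low values, 30 (41.1%) were called, 9 higher and 21 lower in fasted aortae. Over all 12063 genes tested, 31.7% were called, 13.8% higher and 17.9% lower. The median log2 difference was -0.08 over the members and -0.02 over all genes tested. Of the 73 members 48 lay below 0, against 6498 of the 12063 genes tested. The groups did not overlap in 15 members (20.5%), against 17.0% of all genes tested. The largest called fold changes were 1.58-fold lower for Hnrnph1 and 1.42-fold higher for Clk3. Summed over the 73 genes, levels were 2237 to 2382 FPKM in fasted and 2306 to 2585 FPKM in control aortae, which overlap. With the mean log2 level of the adipocyte markers as a covariate, 13 members were called (3 higher and 10 lower, against 19.5% of all genes). Of the 17 calls it ended, Sf3b4, Sf3b5, Srsf9 and U2af1l4 had a log2 difference at least as large with it as without it. The marker sums did not overlap between the groups, so this fit cannot tell adipocyte content and the fast apart.

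**Figure D1:**
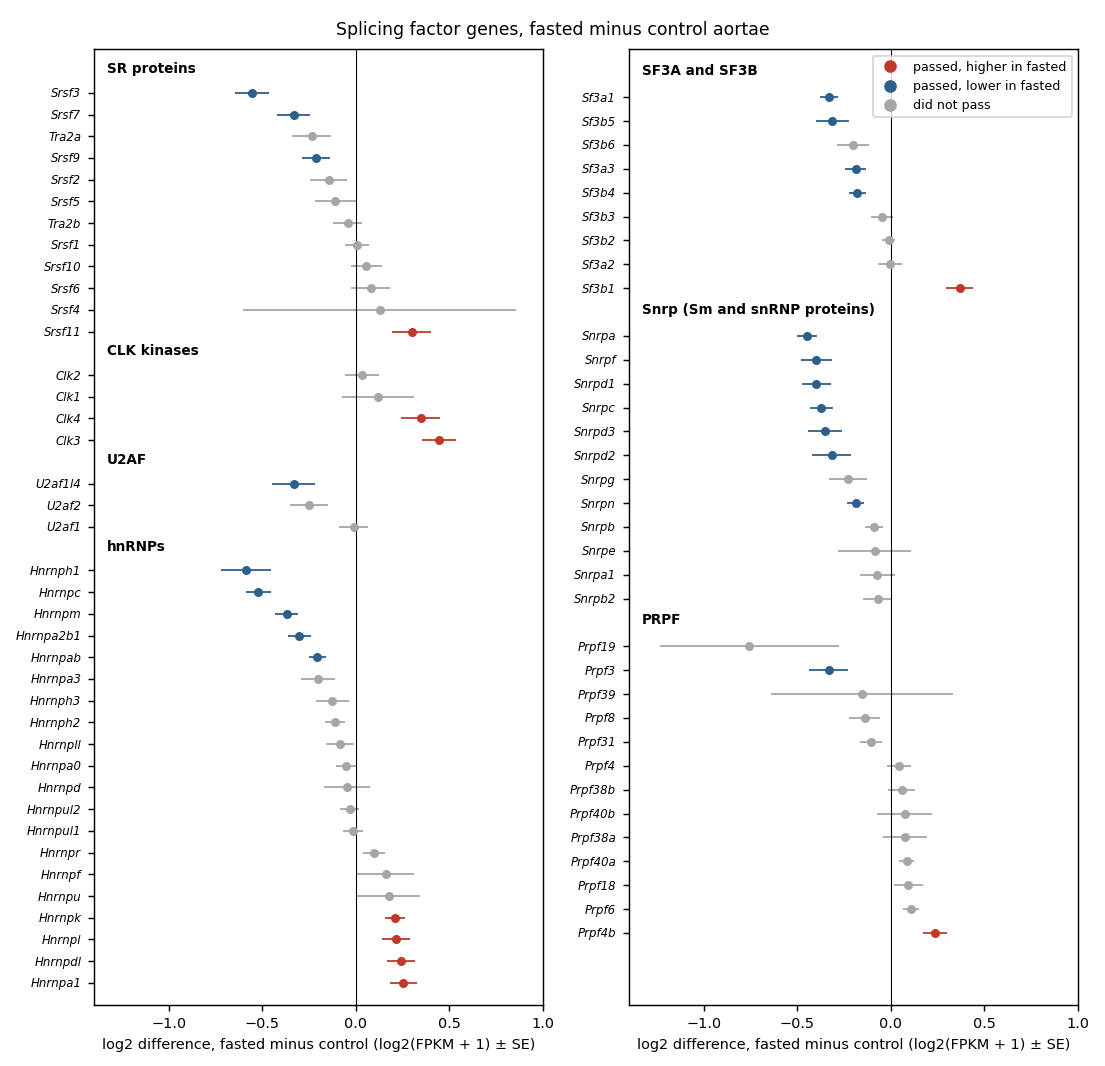
Log2 difference (fasted minus control, log2(FPKM + 1) scale) ± SE of each of the 73 splicing factor genes, ordered within families, with genes called higher in red, called lower in blue and not called in grey. All 12 Snrp genes lie below 0, while the hnRNPs and SR proteins spread to both sides.

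The Snrp genes, which encode Sm ring proteins and proteins of the U1 and U2 particles, were lower as a family: 7 of 12 fell, 0 rose, and all 12 differences were below 0, with a median of -0.27. Over all genes tested, 17.9% were called lower and 13.8% higher, and 6498 of 12063 differences were below 0. The family summed to 286.7 to 318.3 FPKM in fasted and 320.6 to 402.6 FPKM in control aortae, without overlap. Snrpa, the U1 protein that binds a stem loop of U1 snRNA (ENSMUSG00000061479, chromosome 7, 27187005 to 27196271, minus strand, GRCm38), had a lowest, median and highest level of 17.6, 19.4 and 22.4 FPKM in fasted aortae, against 26.0, 27.0 and 28.2 FPKM in controls. Every fasted library lay below every control. Its mean was 19.6 ± 1.62 FPKM in fasted and 27.03 ± 0.810 FPKM in control aortae (SD, n = 6 each; log2 difference -0.45 ± 0.05, adjusted p = 5.96e-05). Snrpc, a second U1 protein, was at 28.3 ± 1.82 FPKM in fasted and 36.9 ± 3.04 FPKM in control aortae (-0.37 ± 0.06, adjusted p = 5.93e-04), also without overlap. Snrnp70, the third U1-specific protein, which the symbol rule does not take in, was not called and stood at 22.8 ± 3.64 FPKM in fasted and 22.1 ± 4.03 FPKM in control aortae (0.05, adjusted p = 0.805).

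Of the 7 Sm ring genes Snrpb, Snrpd1, Snrpd2, Snrpd3, Snrpe, Snrpf and Snrpg, 4 fell. Snrpf had 20.8, 23.8 and 25.03 FPKM as lowest, median and highest in fasted and 26.4, 30.7 and 36.7 FPKM in control aortae (-0.40 ± 0.08, adjusted p = 0.00282). Snrpd1 had 25.9, 31.8 and 33.8 FPKM in fasted and 36.7, 40.9 and 48.2 FPKM in control aortae (-0.40 ± 0.08, adjusted p = 0.00204). In both genes the groups did not overlap. Snrpd3 averaged 12.9 ± 1.62 FPKM in fasted and 16.7 ± 1.98 FPKM in control aortae (-0.35 ± 0.09, adjusted p = 0.0104), with overlapping ranges. Snrpd2 averaged 25.2 ± 3.75 FPKM in fasted and 31.5 ± 4.03 FPKM in control aortae (-0.32 ± 0.11, adjusted p = 0.0365). The remaining ring genes were not called: Snrpb differed by -0.09 (adjusted p = 0.169), Snrpe by -0.09 (adjusted p = 0.777) and Snrpg by -0.23 (adjusted p = 0.109). Snrpg was called in the fit without control replicate 6. Snrpn, which encodes SmN, a close relative of the Snrpb product best known from neurons, fell by 0.19 on the log2 scale (9.56 ± 0.441 FPKM in fasted and 11.02 ± 0.305 FPKM in control aortae, adjusted p = 0.00601). The U2 snRNP genes Snrpa1 and Snrpb2 differed by -0.07 each and were not called (adjusted p = 0.598 and 0.524). With the adipocyte covariate 4 of the 12 Snrp genes were called, all lower, and Snrpd2, Snrpd3 and Snrpf were lost (adjusted p = 0.166, 0.285 and 0.0579). Their log2 differences in that fit were -0.31 for Snrpd2, -0.16 for Snrpd3 and -0.33 for Snrpf. The family median with that covariate was -0.18, and the median over all genes was -0.01. Median-of-ratios factors also ended the call of Snrpd2 (-0.29, adjusted p = 0.0535), as did fits without any 1 of 6 libraries, control replicates 3, 4 and 5 and fasted replicates 1, 4 and 5 (adjusted p up to 0.0781).

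**Figure D2:**
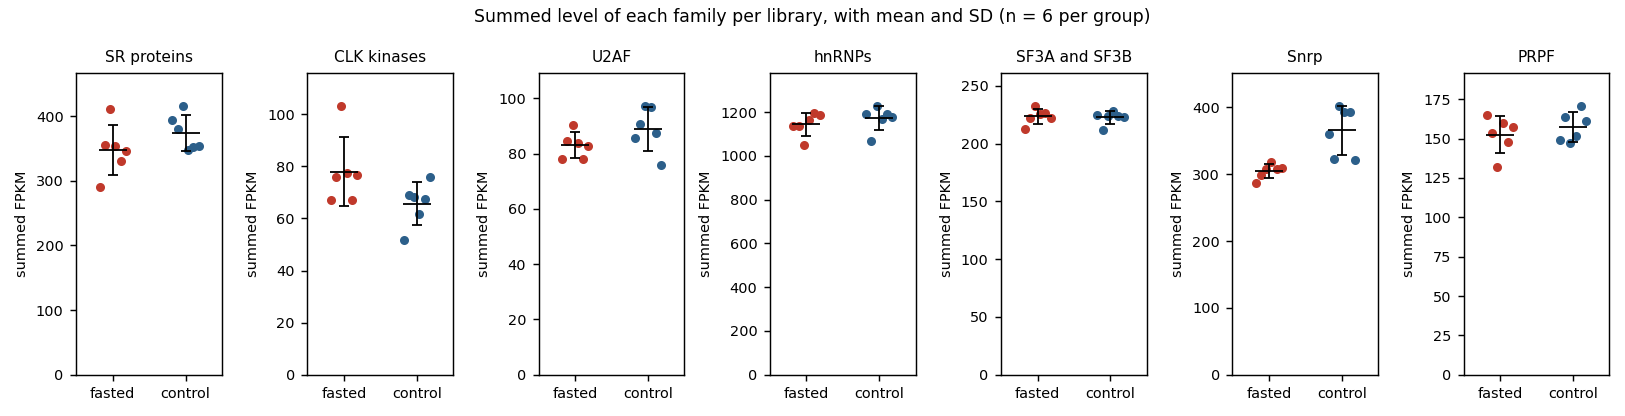
Summed FPKM of each family (vertical axes) in each of the 6 fasted (red) and 6 control (blue) libraries, with the mean and SD as bars. For the Snrp family the highest fasted library (318.3 FPKM) lies below the lowest control library (320.6 FPKM); in the other families the ranges overlap.

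Among the SF3A and SF3B genes 4 of 9 fell and 1 rose (17.9% and 13.8% of all genes tested). The family sums overlapped, 212.7 to 233.0 FPKM in fasted and 211.7 to 228.5 FPKM in control aortae. Sf3b1, the large SF3B subunit that contacts the branch point region (ENSMUSG00000025982, chromosome 1, 54985169 to 55027481, minus strand, GRCm38), had 60.03, 61.9 and 76.01 FPKM as lowest, median and highest in fasted aortae, against 41.2, 51.1 and 53.2 FPKM in controls. Every fasted library lay above every control, and the highest value came from fasted replicate 3. The mean was 64.3 ± 5.96 FPKM in fasted and 49.6 ± 4.49 FPKM in control aortae (0.37 ± 0.07, adjusted p = 0.00206). Sf3a1, the SF3A subunit that bridges to the U2 particle, went the other way, with 6.98, 7.58 and 8.08 FPKM in fasted and 9.16, 9.69 and 10.4 FPKM in control aortae (-0.33 ± 0.05, adjusted p = 2.79e-04). Its groups did not overlap either. Sf3b4 fell by 0.18 on the log2 scale (14.8 ± 0.566 FPKM in fasted and 16.9 ± 0.770 FPKM in control aortae, adjusted p = 0.00827). Sf3b5 fell by 0.31 (5.45 ± 0.697 FPKM in fasted and 7.01 ± 0.799 FPKM in control aortae, adjusted p = 0.0162), and Sf3a3 by 0.19 (19.6 ± 1.45 FPKM in fasted and 22.4 ± 1.19 FPKM in control aortae, adjusted p = 0.0216). With the adipocyte covariate Sf3a1 alone stayed called, and Sf3b1, Sf3b4, Sf3b5 and Sf3a3 were lost (adjusted p = 0.0706, 0.0571, 0.0928 and 0.279). Sf3b4 and Sf3b5 kept their size in that fit, at -0.18 and -0.32 on the log2 scale, whereas Sf3b1 was at 0.25 and Sf3a3 at -0.12. Sf3a3 was also lost without control replicate 5 (adjusted p = 0.05002).

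U2AF recognises the 3′ splice site as a pair of a large subunit, U2af2, and a small subunit, U2af1. U2af1 was not called, with 49.7, 58.4 and 64.6 FPKM as lowest, median and highest in fasted and 50.3, 58.6 and 69.7 FPKM in control aortae (-0.01 ± 0.08, adjusted p = 0.925; 0.02 with median-of-ratios factors). U2af2 differed by -0.25 ± 0.10 and was not called (21.9 ± 2.40 FPKM in fasted and 26.4 ± 4.24 FPKM in control aortae, adjusted p = 0.0759). It was called lower without control replicate 6 and without fasted replicate 1 (adjusted p as low as 0.0416). U2af1l4, a paralog of the small subunit at the lowest mean level of all 73 members, was called lower, at 2.72 ± 0.665 FPKM in fasted and 3.64 ± 0.460 FPKM in control aortae (-0.33 ± 0.12, adjusted p = 0.0458). That call did not hold under median-of-ratios scaling (-0.31, adjusted p = 0.0634), with the adipocyte covariate (-0.46, adjusted p = 0.0577), with its most abundant transcript alone (-0.43, adjusted p = 0.204) and without any 1 of 10 libraries, all but fasted replicates 3 and 4 (adjusted p up to 0.0937).

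The SR family of 12 genes had 1 gene called higher and 3 called lower (13.8% and 17.9% of all genes tested). Its sums overlapped, 290.8 to 410.8 FPKM in fasted and 347.2 to 416.2 FPKM in control aortae. Srsf3, a small SR protein that also takes part in mRNA export (ENSMUSG00000071172, chromosome 17, 29032628 to 29043373, plus strand, GRCm38), was 1.49-fold lower. Its lowest, median and highest levels were 24.7, 29.1 and 32.3 FPKM in fasted and 37.3, 41.9 and 50.4 FPKM in control aortae. The groups did not overlap (28.99 ± 3.11 FPKM in fasted and 43.1 ± 5.50 FPKM in control aortae, -0.55 ± 0.09, adjusted p = 5.45e-04). Srsf7, a near relative of Srsf3, had 22.8, 31.9 and 33.3 FPKM in fasted and 34.5, 38.2 and 44.4 FPKM in control aortae (-0.33 ± 0.09, adjusted p = 0.0124), again without overlap. Srsf9 averaged 22.5 ± 2.76 FPKM in fasted and 26.1 ± 1.87 FPKM in control aortae (-0.21 ± 0.08, adjusted p = 0.0495). Srsf11, an SR-related protein, was the gene called higher, with 30.3, 33.5 and 49.9 FPKM in fasted and 24.3, 29.1 and 31.04 FPKM in control aortae (0.30 ± 0.11, adjusted p = 0.0475). Its highest value was fasted replicate 3, and the groups overlapped. With the adipocyte covariate Srsf3 alone of the family was called, while Srsf7, Srsf9 and Srsf11 were lost (adjusted p = 0.0978, 0.103 and 0.615). In that fit Srsf7 was at -0.32 and Srsf9 at -0.26, while Srsf11 was at 0.10. Srsf11 was also lost without any 1 of 10 libraries, all but fasted replicates 3 and 4 (adjusted p up to 0.0964), and Srsf9 without any 1 of 10, all but control replicate 6 and fasted replicate 3 (adjusted p up to 0.102). Neither was called with its most abundant transcript alone (0.30 with adjusted p = 0.0617 for Srsf11 and -0.21 with adjusted p = 0.0611 for Srsf9), and Srsf9 was not called under median-of-ratios scaling (-0.18, adjusted p = 0.0907).

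The other SR genes were not called. Srsf1, the founding SR protein, had 14.6, 16.5 and 18.8 FPKM as lowest, median and highest in fasted and 14.6, 16.3 and 18.4 FPKM in control aortae (0.01 ± 0.07, adjusted p = 0.962). Srsf2 differed by -0.15 ± 0.10 (adjusted p = 0.297), Srsf5 by -0.11 ± 0.11 (adjusted p = 0.479), Srsf6 by 0.08 ± 0.10 (adjusted p = 0.607) and Srsf10 by 0.06 ± 0.08 (adjusted p = 0.647). The Tra2 proteins are SR-like activators of exons; Tra2a differed by -0.23 ± 0.10 (adjusted p = 0.105) and Tra2b by -0.04 ± 0.08 (adjusted p = 0.719). A p that misses the threshold does not show that their levels are equal.

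Of the 4 CLK kinases, which phosphorylate SR proteins in the nucleus, Clk3 and Clk4 rose (13.8% of all genes tested were called higher). Clk3 (ENSMUSG00000032316, chromosome 9, 57750624 to 57765860, minus strand, GRCm38) had 6.96, 9.53 and 10.3 FPKM as lowest, median and highest in fasted aortae, against 5.31, 6.40 and 7.24 FPKM in controls. The lowest fasted library lay below the highest control, so the ranges overlapped (8.997 ± 1.21 FPKM in fasted and 6.32 ± 0.662 FPKM in control aortae, 0.44 ± 0.09, adjusted p = 0.00259). Clk4 had 25.8, 29.05 and 42.2 FPKM in fasted and 20.8, 23.99 and 27.4 FPKM in control aortae (0.35 ± 0.10, adjusted p = 0.0234). Clk1 stood at 29.9 ± 7.74 FPKM in fasted and 27.7 ± 7.03 FPKM in control aortae (0.12 ± 0.19, adjusted p = 0.684), and Clk2 at 7.73 ± 0.704 FPKM in fasted and 7.57 ± 1.19 FPKM in control aortae (0.03 ± 0.09, adjusted p = 0.809). Neither was called with the adipocyte covariate, with Clk3 at 0.36 (adjusted p = 0.0597) and Clk4 at 0.22 (adjusted p = 0.296). With the most abundant transcript alone neither passed, although Clk3 was at 0.32 (adjusted p = 0.182) and Clk4 was larger at 0.72 (adjusted p = 0.0670). Clk4 was also lost without control replicate 1 (0.31, adjusted p = 0.0522).

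The hnRNPs, which coat nascent transcripts, included the most abundant members per length, although Hnrnpll averaged 3.70 FPKM in fasted and 3.98 FPKM in control aortae. Of the 20 genes 4 rose and 5 fell (13.8% and 17.9% of all genes tested). The 5 members with the highest mean level were Hnrnpa1, Hnrnpa2b1, Hnrnpab, Hnrnpa3 and Hnrnpk. The family summed to 1049.7 to 1197.7 FPKM in fasted and 1067.9 to 1229.7 FPKM in control aortae, which overlap. Hnrnpc, a core hnRNP that binds uridine tracts (ENSMUSG00000060373, chromosome 14, 52073377 to 52104028, minus strand, GRCm38), had 36.03, 41.6 and 44.5 FPKM as lowest, median and highest in fasted aortae, against 55.2, 57.4 and 65.9 FPKM in controls. No fasted library reached the lowest control (41.04 ± 3.36 FPKM in fasted and 59.3 ± 4.54 FPKM in control aortae, -0.52 ± 0.06, adjusted p = 8.45e-05). Hnrnpm fell by 0.37 on the log2 scale (28.5 ± 2.68 FPKM in fasted and 37.02 ± 1.64 FPKM in control aortae, adjusted p = 5.65e-04). Hnrnpa2b1 had 115, 127 and 138 FPKM in fasted and 143, 152 and 178 FPKM in control aortae (-0.30 ± 0.06, adjusted p = 0.00292). Hnrnpab fell by 0.21 (111 ± 5.18 FPKM in fasted and 128 ± 6.09 FPKM in control aortae, adjusted p = 0.00420). These 4 genes showed no overlap between the groups. Hnrnph1, which binds runs of guanines, fell by 0.59 (5.95 ± 1.33 FPKM in fasted and 9.40 ± 1.61 FPKM in control aortae, adjusted p = 0.00507), with overlapping ranges and no call from its most abundant transcript alone (-0.52, adjusted p = 0.188).

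Hnrnpa1, a well studied antagonist of SR proteins (ENSMUSG00000046434, chromosome 15, 103240432 to 103246692, plus strand, GRCm38), rose, with 143, 164 and 189 FPKM as lowest, median and highest in fasted aortae, against 122, 142 and 150 FPKM in controls. The ranges overlapped (166 ± 16.3 FPKM in fasted and 139 ± 10.2 FPKM in control aortae, 0.25 ± 0.07, adjusted p = 0.0157). Hnrnpk, a binder of cytosine tracts, rose by 0.21 (99.9 ± 5.85 FPKM in fasted and 86.4 ± 5.14 FPKM in control aortae, adjusted p = 0.00935). Hnrnpdl rose by 0.24 (76.3 ± 7.52 FPKM in fasted and 64.4 ± 6.17 FPKM in control aortae, adjusted p = 0.0281). Hnrnpl, a binder of CA repeats, had 38.7, 40.7 and 53.8 FPKM in fasted and 33.2, 37.1 and 38.3 FPKM in control aortae (0.21 ± 0.07, adjusted p = 0.0440). Hnrnpl did not overlap between the groups, and its highest value was again fasted replicate 3. Hnrnpa3 differed by -0.20 (adjusted p = 0.103) and Hnrnpd by -0.05 (adjusted p = 0.809), and neither was called. Without control replicate 2 Hnrnpa3 was called lower (adjusted p = 0.0282). Hnrnpa2b1, Hnrnpdl and Hnrnpl were lost with the adipocyte covariate (adjusted p = 0.0869, 0.468 and 0.708), at -0.21, 0.10 and 0.048 on the log2 scale. Hnrnpdl was lost without control replicate 2, control replicate 4 or fasted replicate 6 (adjusted p up to 0.0589), and Hnrnpl without any 1 of 8 libraries, all 6 controls and fasted replicates 1 and 2 (adjusted p up to 0.0890). Neither was called with its most abundant transcript alone (0.24 with adjusted p = 0.0905 for Hnrnpdl and 0.23 with adjusted p = 0.0709 for Hnrnpl). Several hnRNP and Sm genes have near-identical pseudogenes or paralogs, and nothing in the labels or the table says how reads were split between such copies.

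**Figure D3:**
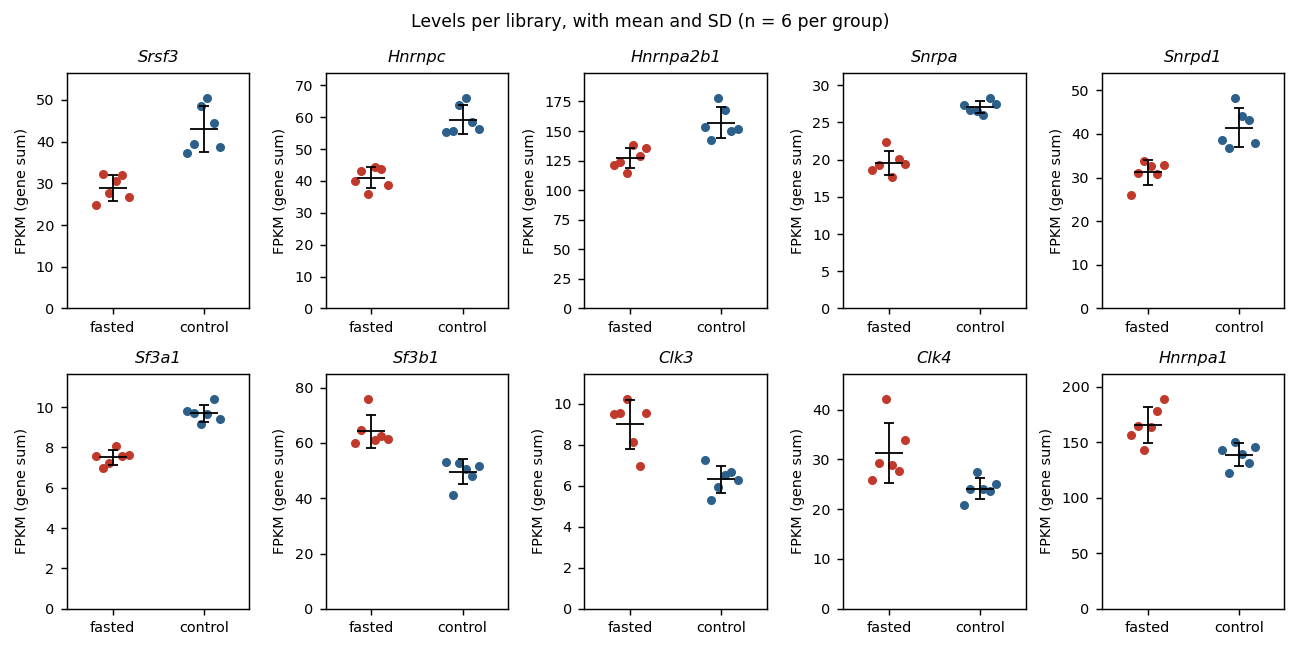
FPKM of 10 called splicing factor genes (vertical axes, from 0) in each of the 6 fasted (red) and 6 control (blue) libraries, with the mean and SD as bars. Srsf3, Hnrnpc, Hnrnpa2b1, Snrpa, Snrpd1 and Sf3a1 were lower and Sf3b1 higher in every fasted library than in every control library; Clk3, Clk4 and Hnrnpa1 were higher on average with overlapping ranges.

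The PRPF genes, most of them proteins of the tri-snRNP and its partners, had 1 of 13 higher and 1 lower (13.8% and 17.9% of all genes tested). Prpf4b, a kinase of the splicing machinery, had 15.9, 18.4 and 20.2 FPKM as lowest, median and highest in fasted and 13.6, 15.7 and 16.3 FPKM in control aortae (0.24 ± 0.06, adjusted p = 0.0129). Prpf3, a U4/U6 protein, averaged 4.24 ± 0.840 FPKM in fasted and 5.54 ± 0.607 FPKM in control aortae (-0.33 ± 0.11, adjusted p = 0.0293). The Prpf3 call was lost with the adipocyte covariate at nearly the same size (-0.31, adjusted p = 0.170), with its most abundant transcript alone, where little difference was left (-0.041, adjusted p = 0.902), and without any 1 of 7 libraries, control replicates 1, 3, 4 and 6 and fasted replicates 1, 2 and 5 (adjusted p up to 0.0639). Prpf8, the large central protein of the spliceosome, was at 28.4 ± 4.10 FPKM in fasted and 31.1 ± 1.49 FPKM in control aortae (-0.14 ± 0.09, adjusted p = 0.232). Prpf6 differed by 0.11 ± 0.04 (adjusted p = 0.0768) and was not called, though it passed with median-of-ratios factors.

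Isoforms were compared next, first as transcripts and then as shares of their gene. The 73 genes had 167 listed transcripts, all annotated as protein coding; 33 genes had 1 listed transcript, and Hnrnpk had the most, 10. Of 163 member transcripts tested, 32 (19.6%) were called, 7 higher and 25 lower, against 16.2% of all transcripts tested (7.19% higher and 8.98% lower). Isoform shares, each transcript's percent of its gene's summed FPKM, could be tested for 134 transcripts of 40 members. Of these 1 (0.746%) was called, the share of Hnrnpa1-202, against 0.388% of all 14677 shares tested. At an unadjusted p under 0.05 there were 27 member shares (20.1%), from 14 genes, against 11.97% of all shares. The 2 or more shares of a gene sum to a fixed total and are not independent. Over the 6 control libraries a member's share spanned a median of 8.27 percentage points, against 12.96 points over all shares tested.

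The exons that distinguish the listed isoforms of U2af1 are shown because the shares of these isoforms did not overlap between the groups; they are given from GENCODE M21 transcript sequences on GRCm38, 5′ to 3′ on the coding strand. The exons are alternatives of 67 bases each, at chr17:31651646-31651712 in U2af1-201 and chr17:31652502-31652568 in U2af1-202 (minus strand). They are identical at 44 of 67 bases (65.7%), and capitals mark the 23 bases that differ.
U2af1-201 exon: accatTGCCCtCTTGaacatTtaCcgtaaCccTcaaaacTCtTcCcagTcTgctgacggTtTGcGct
U2af1-202 exon: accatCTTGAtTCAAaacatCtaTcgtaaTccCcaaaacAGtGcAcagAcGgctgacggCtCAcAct

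Hnrnpa1-202 (ENSMUST00000087351.7), with the shorter coding sequence of the 2 listed isoforms, made up 82.0%, 84.8%, 85.5%, 81.2%, 83.3% and 83.9% of Hnrnpa1 FPKM in the 6 fasted libraries, against 76.0%, 74.7%, 75.6%, 77.2%, 75.0% and 75.9% in the 6 controls. Every fasted share lay above every control share. The mean was 83.4% ± 1.64 in fasted and 75.7% ± 0.898 in control aortae (SD, n = 6 each), a difference of 7.73 percentage points (adjusted p = 0.0328, limma on arcsine square roots). As transcripts, Hnrnpa1-202 was at 138.5 ± 13.6 FPKM in fasted and 105.1 ± 8.41 FPKM in control aortae (0.39 ± 0.07, adjusted p = 0.00334). Hnrnpa1-201 was at 27.5 ± 3.96 FPKM in fasted and 33.7 ± 2.16 FPKM in control aortae (-0.29 ± 0.09, adjusted p = 0.0488). The call of Hnrnpa1-202 as a transcript held in every fit without 1 library and with the adipocyte covariate. That of Hnrnpa1-201 was lost with that covariate (-0.14, adjusted p = 0.529), with median-of-ratios factors, either other pseudocount, no filter or the replicate block (adjusted p 0.0511 to 0.103), and in 9 of 12 fits without 1 library, all but those without fasted replicates 3, 4 and 6 (adjusted p up to 0.0973). The share lost its call in 11 of 12 fits without 1 library, all but that without fasted replicate 4 (adjusted p 0.0486 to 0.0859), and with the adipocyte covariate (adjusted p = 0.372), while its direction held in each. With that covariate 0 of all 14677 shares were called, so its loss there is not particular to this isoform.

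U2af1 was not called in its total, but its isoform shares did not overlap between the groups. How often shares fail to overlap over all shares tested is not given here. The lack of overlap in shares and exons, here and below, therefore has no base rate beside it. U2af1-202 held 8.14% at its lowest, 11.7% at the median and 13.1% at its highest in fasted aortae, against 16.4%, 18.6% and 20.5% in controls. Its level as a transcript was called lower (6.48 ± 1.39 FPKM in fasted and 10.8 ± 1.48 FPKM in control aortae, -0.67 ± 0.13, adjusted p = 0.00480), a call lost with the adipocyte covariate (-0.44, adjusted p = 0.123). U2af1-201, with the other 67-base exon, was at 51.9 ± 4.51 FPKM in fasted and 48.2 ± 5.19 FPKM in control aortae (0.11 ± 0.08, adjusted p = 0.403). As a share, neither passed: U2af1-201 held 88.9% ± 2.12 in fasted and 81.7% ± 1.65 in control aortae (adjusted p = 0.0539), and the adjusted p for U2af1-202 was 0.0761. Both passed when the shares were limited to genes of at least 5 FPKM in every library, and U2af1-201 also passed untransformed or with 0.1 FPKM added to every transcript.

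Srsf5-205 was called higher as a transcript, at 23.96 ± 2.39 FPKM in fasted and 15.8 ± 1.02 FPKM in control aortae (0.57 ± 0.07, adjusted p = 2.43e-04). Srsf5-201 was at 23.8 ± 2.43 FPKM in fasted and 36.3 ± 15.8 FPKM in control aortae (-0.51 ± 0.20, adjusted p = 0.116). These isoforms have the same coding length of 807 bases and differ in the ends of the transcript. The share of Srsf5-205 was 37.98%, 43.9% and 48.04% as lowest, median and highest in fasted and 17.3%, 27.4% and 35.7% in control aortae, without overlap and not called (adjusted p = 0.0830), though it passed among genes of at least 5 FPKM in every library. Hnrnpa2b1-201 held 22.02% ± 2.84 in fasted and 15.1% ± 1.37 in control aortae (adjusted p = 0.133), also without overlap and not called. Hnrnph3-203 held 43.98% ± 3.71 in fasted and 32.8% ± 2.92 in control aortae (adjusted p = 0.124). Of Hnrnpc, the transcripts Hnrnpc-206, Hnrnpc-209, Hnrnpc-205 and Hnrnpc-201 were called lower. Hnrnpc-201 alone of these was lost with the adipocyte covariate, at an unchanged size (-0.63, adjusted p = 0.0533). Hnrnpc-210 was at 6.94 ± 0.798 FPKM in fasted and 6.57 ± 0.646 FPKM in control aortae (0.07 ± 0.08, adjusted p = 0.658).

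**Figure D4:**
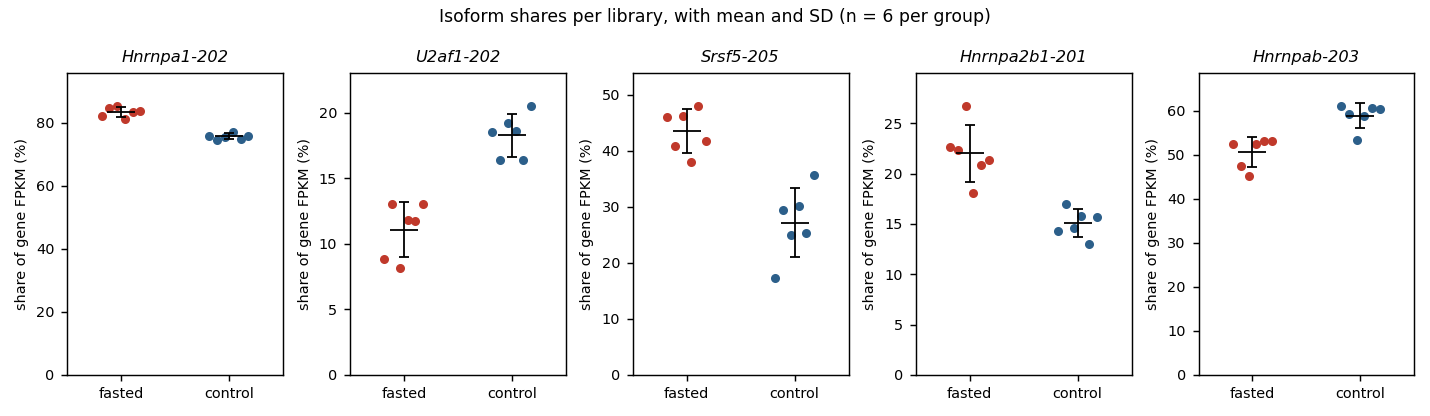
Share of each isoform in the summed FPKM of its gene (percent, vertical axes from 0) in each of the 6 fasted (red) and 6 control (blue) libraries, with the mean and SD as bars. The groups do not overlap in any of the 5 isoforms shown, and the share of Hnrnpa1-202 is the one that was called. The others were named after their values were seen.

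Cassette exons of 3 hnRNP genes were read from the listed isoforms that span them, as a description chosen after their values were seen and with no test. They are shown because each sets the length of the encoded protein, with the exon in capitals between 15 bases of its neighbours. The Hnrnpab exon (141 bases, chr11:51601750-51601890, minus strand) was in 63.5% ± 1.99 of Hnrnpab FPKM in fasted and 70.4% ± 1.55 in control aortae, without overlap.
Hnrnpab exon: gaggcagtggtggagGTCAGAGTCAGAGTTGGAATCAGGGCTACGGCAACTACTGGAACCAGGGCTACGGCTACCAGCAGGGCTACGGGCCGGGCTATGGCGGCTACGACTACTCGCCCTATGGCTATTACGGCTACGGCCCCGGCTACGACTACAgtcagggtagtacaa
The Hnrnpa2b1 exon (120 bases, chr6:51464428-51464547, minus strand) was in 40.0% ± 4.30 of the FPKM of the isoforms that span it in fasted and 44.4% ± 1.76 in control aortae, with overlap.
Hnrnpa2b1 exon: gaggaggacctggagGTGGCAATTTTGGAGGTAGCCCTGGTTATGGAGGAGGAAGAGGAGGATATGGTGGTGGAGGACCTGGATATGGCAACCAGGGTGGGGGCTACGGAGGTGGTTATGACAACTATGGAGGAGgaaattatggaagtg
The Hnrnpc exon (39 bases, chr14:52081789-52081827, minus strand), which adds 13 codons, was in 30.9% ± 2.95 in fasted and 32.1% ± 1.39 in control aortae, with overlap, although the level of Hnrnpc itself fell.
Hnrnpc exon: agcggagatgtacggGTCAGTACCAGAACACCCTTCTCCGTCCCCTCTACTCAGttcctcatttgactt
Of these 3 exons, that of Hnrnpab alone was in less of the listed RNA in every fasted library than in any control. For the Hnrnpa2b1 exon the overlap came from fasted replicate 4 alone, at 48.2%, against a lowest control of 42.2%.

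Among members with a mean of at least 5 FPKM, Srsf4 and Prpf19 fell on separate levels inside both groups, which was noticed after the values were seen and is given without a test. Srsf4, an SR protein with 1 listed transcript, was at 3.96, 30.1, 33.1, 28.2, 4.25 and 4.27 FPKM in fasted replicates 1 to 6 and at 28.2, 28.4, 25.7, 3.02, 4.49 and 3.97 FPKM in control replicates 1 to 6. Each group thus held 3 libraries near 4 FPKM and 3 above 25 FPKM, and the difference between groups was 0.13 ± 0.73 (adjusted p = 0.916). Prpf19, a ubiquitin ligase of the spliceosome, was at 26.8, 6.77, 5.78, 6.67, 6.85 and 6.83 FPKM in fasted and at 8.57, 30.7, 5.63, 7.55, 29.98 and 29.02 FPKM in control replicates 1 to 6 (-0.76 ± 0.48, adjusted p = 0.252). A gap of more than 3-fold between neighbouring libraries in rank occurred in 2 of 68 members (2.94%) and in 35 of 7591 genes (0.461%) with such a mean and no value of 0. The gap was 5.73-fold for Srsf4 and 3.13-fold for Prpf19, the latter just above that cut, so these percentages depend on where the cut is set. Prpf39, a U1-associated protein with 1 listed transcript, was at 1.46 and 1.59 FPKM in fasted replicates 3 and 5 and at 11.1 to 13.9 FPKM in the other 4, against 3.78 to 10.5 FPKM in controls (-0.15 ± 0.49, adjusted p = 0.843). For these 3 genes a group mean describes few of the libraries.

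**Figure D5:**
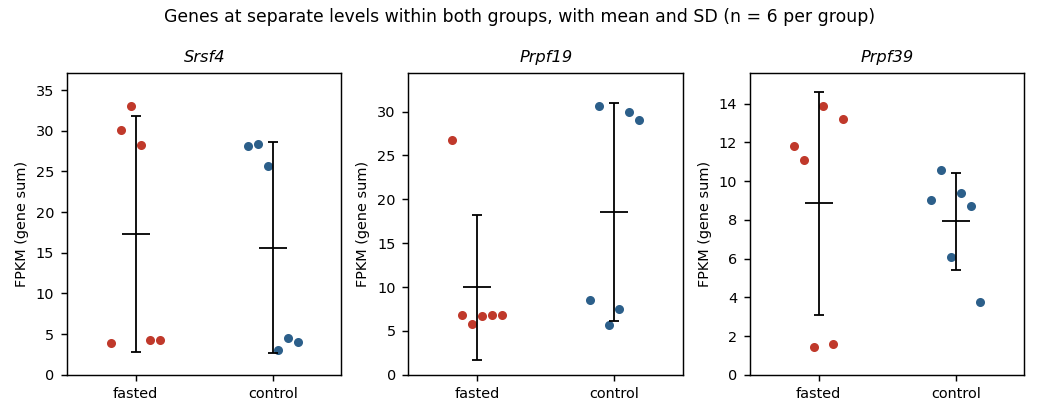
FPKM of Srsf4, Prpf19 and Prpf39 (vertical axes, from 0) in each of the 6 fasted (red) and 6 control (blue) libraries, with the mean and SD as bars. Srsf4 has 3 libraries near 4 FPKM and 3 above 25 FPKM in each group, and Prpf19 has 1 fasted and 3 control libraries above 25 FPKM.

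Other genes of the splicing pathway, 104 regulators and spliceosome components outside the symbol rule, were called at a share near that of all genes. Of these 99 were listed and tested, and 13 were called higher and 23 lower (36.4%), against 31.7% of all genes tested (13.8% higher and 17.9% lower), with a median log2 difference of -0.09. Ppil1, a cyclophilin of the catalytic spliceosome, had the smallest p, at 8.49 ± 0.587 FPKM in fasted and 15.4 ± 1.29 FPKM in control aortae (-0.79 ± 0.06, adjusted p = 2.79e-06). Khdrbs3, an exon regulator of the STAR family, was lower at 26.1 ± 1.20 FPKM in fasted and 36.1 ± 2.22 FPKM in control aortae (adjusted p = 2.95e-05). Pspc1, a paraspeckle protein, and Puf60, a partner of U2AF, also fell, by 0.49 and 0.24 on the log2 scale (adjusted p = 0.00119 and 0.00142). Ptbp2, a polypyrimidine tract binding repressor, rose to 28.1 ± 2.30 FPKM in fasted aortae, against 18.4 ± 1.73 FPKM in controls (0.59 ± 0.07, adjusted p = 5.81e-05). Srrm2, a scaffold of nuclear speckles, was at 20.5 ± 0.972 FPKM in fasted and 15.1 ± 1.30 FPKM in control aortae (0.42 ± 0.06, adjusted p = 1.71e-04). Qk, a regulator of smooth muscle splicing, and Rbm24, a muscle splicing factor, rose by 0.33 and 0.63 (adjusted p = 6.15e-04 and 7.11e-04). The SR protein kinases Srpk1 and Srpk2 were not called (0.04 with adjusted p = 0.739 and -0.06 with adjusted p = 0.489). Srpk3, the third of these kinases and best known from muscle, was called lower, at 6.08 ± 1.07 FPKM in fasted and 8.36 ± 1.43 FPKM in control aortae with overlapping ranges (-0.40 ± 0.12, adjusted p = 0.0240). The part of the higher adipocyte markers in these results was not tested beyond the covariate fits given above. Those fits cannot tell adipocyte content and the fast apart, since the marker sums did not overlap between the groups.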

How the data were processed

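FPKM was deposited by the authors for 22699 transcripts in 12 libraries, in 1 table; FastQC, cutadapt, HISAT2 and StringTie with the GRCm38 build are named per the submitters' processing notes, with no version, setting, use of strand or annotation release. Each listed transcript had a mean of at least 0.5 FPKM in its higher group, so depth per library and rarer isoforms are unknown. Transcripts were assigned to genes through GENCODE M21 (21493 identifiers with their version, 1162 with another, 44 unmatched) and summed per gene. Sequences came from its transcripts; 1 further sequence is not reported here.

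Genes and transcripts that reached 0.5 FPKM in 6 or more libraries entered limma 3.58.1 in R 4.3.3 (lmFit, eBayes with a trend) on log2(FPKM + 1). Shares were tested on arcsine square roots, for genes of at least 1 FPKM in every library with at least 2 transcripts averaging 0.5 FPKM. P-values were adjusted over all features tested, with a threshold of 0.05. The tests were run first on simulated data. No 2 libraries were copies: at most 7.06% of genes lay within 1% of each other.

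The members, the gene lists and the tests were chosen with earlier results of these data known. Named are the 24 members with the smallest p among those called, called shares, the 5 most abundant members, 20 genes regardless of outcome, and 4 other splicing genes in each direction. The further called members, the exon percentages, Srpk3, the isoforms named as transcripts or without a called share, and the genes on separate levels were named after their values were seen. A planned test of noncoding isoform shares had no member to test, since every listed member transcript is annotated as protein coding.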

Additional observations from a re-analysis of the deposited data

Results flagged for a closer look

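Each group of 6 libraries was examined for a single library far from the rest, by its gap to the nearest library divided by the group's range. Over the 73 genes and the called share 148 groups were examined and 11 stood out; chance picks about 1 in 20 groups. In fasted replicate 3, Sf3b1 was highest at 76.01 FPKM (the next library was at 64.7), Srsf11 was highest at 49.9 (next 35.7), Hnrnpl was highest at 53.8 (next 44.3) and Hnrnpf was lowest at 50.7 (next 74.6). In fasted replicate 1, Srsf7 was lowest at 22.8 FPKM (next 31.04), Snrpd1 lowest at 25.9 (next 30.9), Sf3b6 lowest at 20.6 (next 25.6) and Prpf19 highest at 26.8 (next 6.85). Snrpa1 was lowest in fasted replicate 2 at 6.01 FPKM (next 6.73), and Prpf18 was highest in fasted replicate 6 at 14.9 FPKM (next 12.4). Prpf4b was lowest in control replicate 2 at 13.6 FPKM (next 15.3). Sf3b1, Srsf7, Snrpd1 and Prpf4b were called in every fit without 1 library, whereas Srsf11 and Hnrnpl were not.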

How the results depend on the processing

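Of 73 splicing factor genes 30 were called, 9 higher and 21 lower. The count was 30 without the filter and 29 with a pseudocount of 0.1 or 0.01, 28 with median-of-ratios factors, and 23 to 30 without 1 library (6 to 9 higher and 17 to 21 lower). Over all genes tested, 31.1% to 32.5% were called in the first 4 of these settings, and 27.8% to 34.7% without 1 library. With the adipocyte covariate it was 13 (3 higher and 10 lower), against 19.5% of all genes. With the most abundant transcript alone it was 21 (4 higher and 17 lower), against 26.3% of all genes. The 32 called member transcripts became 10 with the adipocyte covariate (3 higher and 7 lower), against 7.18% of all transcripts. Without 1 library they became 27 to 33, against 13.3% to 17.5% of all transcripts. The 1 called share became 2 with 0.1 FPKM added to every transcript and 2 untransformed (2 higher each, against 0.429% of all shares in each). It became 5 in genes of at least 5 FPKM in every library (3 higher and 2 lower), against 0.764% of all shares. It became 0 with the adipocyte covariate (limma, 14 shares at an unadjusted p under 0.05), and 0 to 1 without 1 library. Over all 14677 shares, 0 were called with that covariate. Without 1 library, 0.164% to 0.306% of all shares tested were called. The causes were not tested.

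Same-numbered libraries did not deviate together (correlations -0.01 to 0.08, and 1 of 6 numbers correlated best with its own), so the numbers were not taken as pairs. With the replicate block 30 member genes were called (9 higher and 21 lower), with Snrpg in place of Srsf9. There were 28 called member transcripts and 0 called member shares (limma, 18 at an unadjusted p under 0.05). Over all genes and over all transcripts tested, fewer were called with that block than without it. Over all 14677 shares, 0 were called with it, so the loss of the called share there is not particular to the members.

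Among named members, 22 log2 differences changed sign, all of genes that were not called. With the adipocyte covariate Clk1 was -0.23, Srsf1 -0.098, Srsf10 -0.056, Srsf6 -0.022, Tra2b 0.054 and U2af1 0.031. With the most abundant transcript alone Clk2 was -0.057, Srsf1 -0.032, Srsf2 0.15 and U2af1 0.11, and with median-of-ratios factors U2af1 was 0.017. Without 1 library the range was -0.034 to 0.20 for Clk1, -0.0075 to 0.094 for Clk2, -0.11 to 0.044 for Hnrnpd, -0.029 to 0.039 for Srsf1 and -0.055 to 0.037 for U2af1. No called gene changed sign in any alternative run. A comparison of noncoding isoforms could not be run.

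Depth is unknown, so low genes such as U2af1l4 carry an unknown counting error, and transcripts under 0.5 FPKM in both groups are not analysed here.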
